A study of Mus musculus with 6 samples.

Results

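The neurotrophins, the GDNF family ligands and their receptors were followed in corneal keratocytes, the quiescent stromal cells that make and keep the collagen matrix of the cornea. The set held 9 genes (Bdnf, Ntf3, Ngfr, Ntrk2, Ntrk3, Gdnf, Artn, Gfra1 and Gfra2), taken by symbol from the 17606 genes of the deposited expression table, and all 9 were found there. RNA-seq had been done on keratocytes sorted by FACS from mouse corneas, with 3 libraries from control mice and 3 from Ptch1-ablated mice. Ptch1 encodes the receptor that holds Hedgehog signaling off in the absence of ligand, so the comparison asks which of these genes differ once the pathway is switched on in keratocytes.

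The Ptch1-ablated mice were Prrx1-CreERT;Ptch1 f/f animals, in which tamoxifen removes the floxed Ptch1 alleles from cells that use the Prrx1 promoter. By the study's own account, this Cre line also recombines in the corneal endothelium. Both groups were 10 weeks old and received 3 doses of tamoxifen, and keratocytes were collected 1 month later. The labels call the other group control without giving its alleles, so whether those mice carried the Cre or the floxed alleles is not known here. The methods describe the 3 libraries of each group as biological replicates, and neither source says whether animals were pooled.

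Neurotrophins are secreted growth factors for neurons. BDNF acts through the receptor kinase TrkB (Ntrk2) and neurotrophin-3 through TrkC (Ntrk3), while p75 (Ngfr) binds both and also their uncleaved precursors. GDNF and artemin belong to a separate family, which first binds a GPI-anchored co-receptor, GFRα1 for GDNF, GFRα2 for neurturin and GFRα3 for artemin, and then the shared receptor kinase Ret, or NCAM in cells without Ret. The cornea is among the most densely innervated tissues of the body, and stromal cells are known sources of some of these factors.

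Ntrk2 is made in more than one form, and the forms carry the point on which a gene total is silent. In the GENCODE transcripts, the full-length form (Ntrk2-201, 2466 coding bases) and the truncated form (Ntrk2-202, 1431 coding bases) share their first 1394 coding bases and then part. Full-length TrkB has the kinase, whereas the truncated receptor ends after 37 coding bases of its own. The lines give the 30 shared bases before the fork in lower case and the 37 bases after it in capitals.
Ntrk2 truncated: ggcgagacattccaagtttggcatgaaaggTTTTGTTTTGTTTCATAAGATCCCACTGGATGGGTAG
Ntrk2 full length: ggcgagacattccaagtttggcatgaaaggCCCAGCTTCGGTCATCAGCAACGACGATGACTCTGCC

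The paralogs of the set were also compared, because a counter that splits reads between near-identical genes could move counts from one to the other. The longest run of coding sequence shared by Gfra1 and Gfra2 was 28 bases, and that shared by Ntrk2 and Ntrk3 was 23 bases.
Gfra1 and Gfra2, shared: actgccgctgcaagcggggcatgaagaa
Ntrk2 and Ntrk3, shared: gacccactcatcatggtctttga
The longest run shared by Ntf3 and Bdnf was 17 bases. Ntrk3 was the one gene of the set with counts that were not whole numbers, which arise where RSEM splits reads among genes.

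Promoter sequence was at hand for 7 of the 9 genes, in RefSeq windows of GRCm38.p6 that run from 250 bases before a transcription start to 50 bases after it. Gfra2 and Ntrk3 had no entry. The windows of Ntf3, whose RNA was higher in the Ptch1-ablated libraries, and of Gfra1, whose RNA was lower, are printed with each CG dinucleotide in capitals. Ntf3 had 2 start sites, with 12 and 17 CG dinucleotides, and Gfra1 had 1, with 12, where the median over all 32851 windows was 7.
Ntf3 start 1, chr6:126166695-126166994, minus strand: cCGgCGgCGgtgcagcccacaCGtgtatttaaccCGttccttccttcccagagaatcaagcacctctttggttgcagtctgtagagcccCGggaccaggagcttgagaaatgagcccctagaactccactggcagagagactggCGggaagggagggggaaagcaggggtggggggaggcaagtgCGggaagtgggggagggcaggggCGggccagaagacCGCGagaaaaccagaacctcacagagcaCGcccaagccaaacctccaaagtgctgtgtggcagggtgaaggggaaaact
Ntf3 start 2, chr6:126164911-126165210, minus strand: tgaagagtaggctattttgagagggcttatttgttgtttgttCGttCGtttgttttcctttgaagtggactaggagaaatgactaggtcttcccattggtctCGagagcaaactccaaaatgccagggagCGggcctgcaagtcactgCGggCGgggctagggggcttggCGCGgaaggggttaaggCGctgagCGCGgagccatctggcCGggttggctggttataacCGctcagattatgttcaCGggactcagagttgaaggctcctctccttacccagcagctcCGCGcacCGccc
Gfra1 start 1, chr19:58455349-58455648, minus strand: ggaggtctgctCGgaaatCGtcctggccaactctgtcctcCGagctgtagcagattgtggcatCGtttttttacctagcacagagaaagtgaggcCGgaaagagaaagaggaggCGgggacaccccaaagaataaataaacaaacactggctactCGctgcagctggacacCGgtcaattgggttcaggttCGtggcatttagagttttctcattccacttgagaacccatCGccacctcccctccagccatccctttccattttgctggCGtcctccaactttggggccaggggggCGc
The 9-base Gli motif GACCACCCA, searched on both strands (reverse complement TGGGTGGTC), was in none of the 15 windows of these 7 genes and in 83 of all 32851 windows (0.253%). This says only that these letters were not in windows of 300 bases.

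The 6 libraries held between 20258439 and 24788063 expected counts. A count of 3, used as the floor for a gene at 0, was between 0.121 and 0.158 CPM (counts scaled to a common library size), and such limits cover counting error only. The libraries labelled Ptch1-ablated were checked by the gene that had been deleted and by its known targets. Ptch1 itself had 172, 104 and 369 counts in the control libraries and 4348, 5194 and 6230 in the Ptch1-ablated libraries, so the gene total rose rather than fell, and it does not resolve the deleted exons. Gli1 and Hhip, both direct Hedgehog targets, also rose. The first principal component of log2 CPM (45.1% of the variance) separated the groups, while the second (22.2%) gave high scores to control replicate 1 and Ptch1-ablated replicate 2 and low scores to the remaining 4. The summed TPM of 10 keratocyte markers was 80033 to 88321 in the control libraries and 55367 to 57657 in the Ptch1-ablated libraries. The sum was thus high in both groups but lower after ablation. By the rule below 6 of 9 tested markers were lower, beside 2.13% of all tested genes. With the adjusted p alone 8 passed lower, beside 3.80%, and by sign all 9 were lower. The paper reads its marker genes as a move of these cells toward a mesenchymal stem cell or fibroblast profile.

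Differences were tested with edgeR's quasi-likelihood test, and a gene was called when its Benjamini-Hochberg adjusted p over all genes tested was at most 0.05 and its change at least 2-fold. Of 13888 genes tested, 763 (5.49%) were called, 467 (3.36%) higher and 296 (2.13%) lower in the Ptch1-ablated libraries. Of the 9 genes, 8 had enough counts to be tested, and Bdnf did not. Ntf3, Ntrk3 and Gfra2 were called higher, which is 3 of 8 tested, and Gfra1 was called lower, which is 1 of 8. Ntrk2 fell by less than 2-fold, and Ngfr, Gdnf and Artn did not pass the test. With the adjusted p alone, 5 of the 8 passed, where 8.48% of all tested genes did. In 6 of the 8 the libraries of the 2 groups did not overlap in CPM, where 27.4% of all tested genes did not. The median log2 fold change was 0.21 over the 8 genes and 0.0046 over all tested genes. Without control replicate 1 and Ptch1-ablated replicate 2, 3 of these genes were again called higher and 1 lower.

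**Figure D1:**
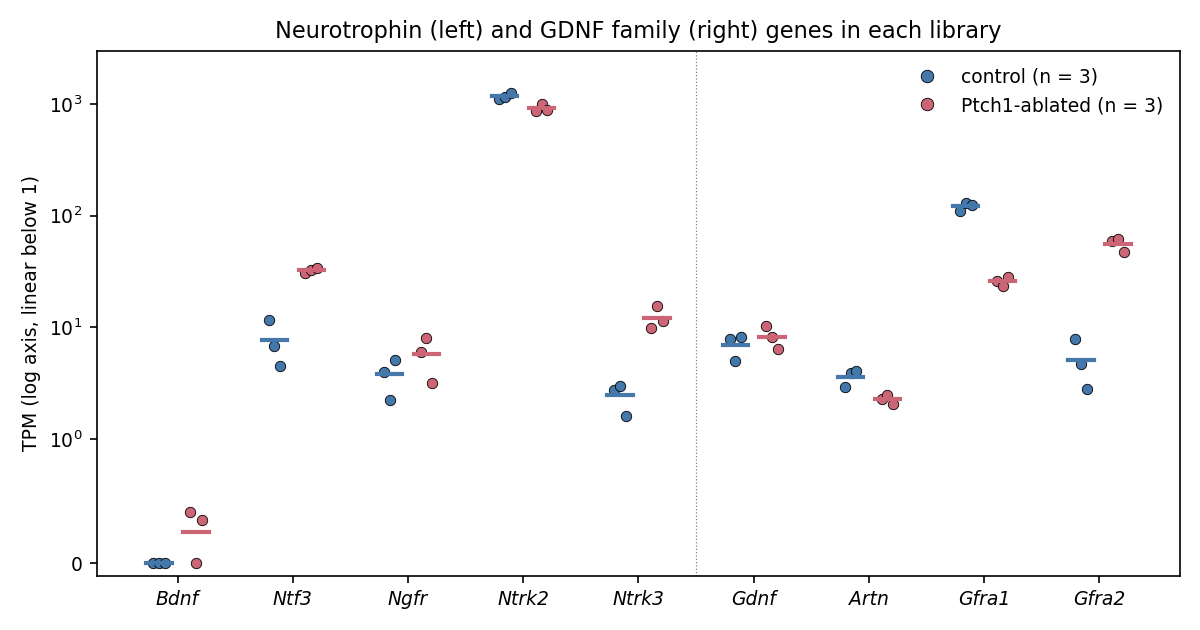
Level of each of the 9 genes in TPM (scaled for transcript length and library size, vertical axis logarithmic above 1 and linear below) in the 3 control and 3 Ptch1-ablated libraries, with points for libraries and bars for group means. Ntrk2 stands at 864 to 1250 TPM in all 6 libraries, and Gfra1 and Gfra2 exchange places, from 122 and 5.14 TPM on average in control to 26.0 and 56.2 TPM in Ptch1-ablated keratocytes.

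The neurotrophin ligands are described first. Ntf3, which encodes neurotrophin-3, had 143, 73 and 56 counts in the control libraries and 354, 351 and 430 in the Ptch1-ablated libraries. The lowest Ptch1-ablated library thus lay above the highest control library, and control replicate 1 was the highest of its group. In TPM, a level per transcript length, Ntf3 went from 7.67 ± 3.62 (SD, n = 3) to 32.6 ± 1.74. The log2 fold change was 1.88 ± 0.41 (SE), or 3.68-fold, with an adjusted p of 0.0136 by edgeR's quasi-likelihood test. The call was lost without control replicate 2 (adjusted p = 0.0597) and without Ptch1-ablated replicate 3 (adjusted p = 0.0701), with log2 fold changes of 1.81 and 1.80 in those edgeR fits.

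Bdnf, the gene of brain-derived neurotrophic factor and the main ligand of TrkB, had 0 counts in each control library and 16, 0 and 15 counts in the Ptch1-ablated libraries. The groups overlapped at 0, since Ptch1-ablated replicate 2 had none. A count of 0 in the control libraries allows up to 0.131 to 0.158 CPM, and the mean of the Ptch1-ablated libraries was 0.429 ± 0.373 CPM. The gene was too low for the main test, and without the filter on low counts its adjusted p was 0.206 by edgeR. An antisense gene overlaps exons of Bdnf in GENCODE, and the strand of the counted reads was not stated.

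Ntf5, which encodes neurotrophin-4, had 1 count in 1 Ptch1-ablated library and none in the others.

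Among the Trk receptors, Ntrk2 was by far the most abundant gene of the set. It had 87075, 77912 and 97908 counts in the control libraries and 62246, 68354 and 69121 in the Ptch1-ablated libraries. In TPM it stood at 1114, 1156 and 1250 in control and at 864, 1009 and 877 in Ptch1-ablated keratocytes. These levels ranked 82nd to 97th among all genes of the table in the control libraries and 100th to 133rd in the Ptch1-ablated libraries. Ntrk2 fell by 0.57 ± 0.092 on the log2 scale (1.48-fold), with an adjusted p of 0.0019 by edgeR, and the groups did not overlap. On log2(TPM + 1) values with limma the change was -0.36 with an adjusted p of 0.0712, on a scale where the median of all genes stood at 0.19, and with a pseudocount of 0.1 it was -0.36 with an adjusted p of 0.0747.

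Ntrk3, the gene of the neurotrophin-3 receptor TrkC, moved the other way. It had 109, 90.0 and 69 counts in the control libraries and 389, 563 and 514 in the Ptch1-ablated libraries, with no overlap. The level was 2.47 ± 0.74 TPM in control and 12.3 ± 2.93 TPM in Ptch1-ablated keratocytes. The log2 fold change was 2.26 ± 0.35 (4.80-fold), with an adjusted p of 0.00147 by edgeR. The TPM of Ntrk2 was 385 to 772 times that of Ntrk3 in the control libraries and 64.9 to 87.4 times in the Ptch1-ablated libraries, so Ntrk2 still exceeded its paralog throughout.

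**Figure D2:**
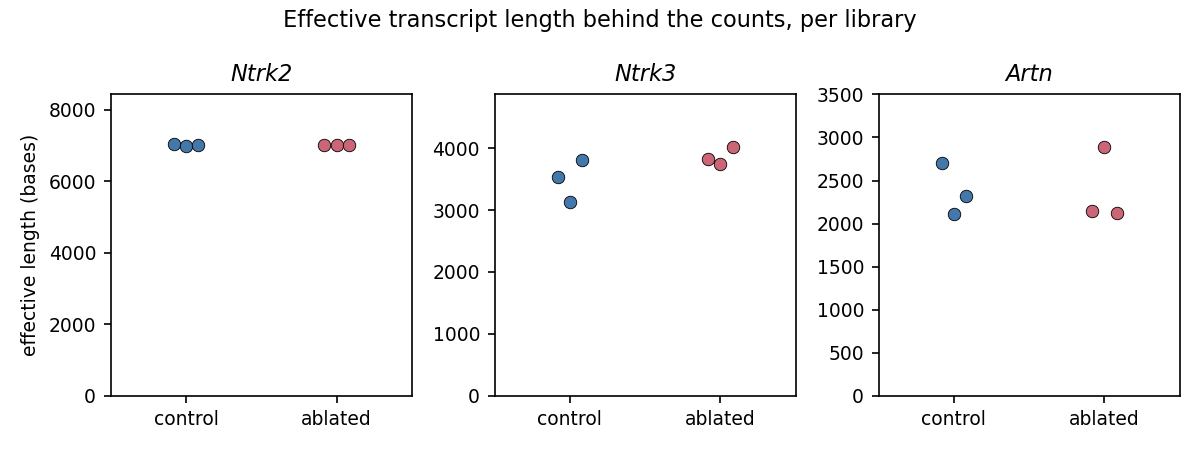
Effective transcript length in bases, recovered from the deposited counts and FPKM values, for Ntrk2, Ntrk3 and Artn in the 3 control and 3 Ptch1-ablated libraries (1 point per library, axes from 0). Ntrk2 lies at 6999 to 7045 bases in all 6 libraries, whereas the lengths of Ntrk3 and Artn vary among libraries of the same group.

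The effective length that RSEM used for a gene depends on the mix of its transcript forms, and it was read back from counts and FPKM for libraries with at least 10 counts. For Ntrk2 it was 7045, 6999 and 7002 bases in control and 7015, 7013 and 7026 bases in Ptch1-ablated keratocytes, so the ranges of the groups overlapped. The GENCODE forms printed above are 8744 bases (full length) and 6846 bases (truncated) long, but the transcript models behind the table are not given in the sources used here, so shares of the forms were not derived. For Ntrk3 the lengths were 3543, 3130 and 3813 bases in control and 3835, 3750 and 4027 bases in Ptch1-ablated keratocytes. The length behind the Ntrk3 total thus varied by library, on 69 to 109 counts in control and 389 to 563 counts in Ptch1-ablated libraries. Whether the form mix itself varied was not tested. For Artn the lengths ran from 2112 to 2887 bases and overlapped between groups. For Ntf3 they ran from 1102 to 1120 bases, for Ngfr from 3167 to 3183, for Gdnf from 3318 to 3423, for Gfra1 from 4354 to 4397 and for Gfra2 from 3170 to 3261, each a narrow range over libraries of both groups.

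Ngfr, the gene of p75, had 142, 69 and 182 counts in the control libraries and 196, 248 and 114 in the Ptch1-ablated libraries. The groups overlapped, and control replicate 2 and Ptch1-ablated replicate 3 were the lowest of their groups. The log2 fold change was 0.37 ± 0.48, with an adjusted p of 0.742 by edgeR. Members of the sortilin family pair with p75 or carry neurotrophin precursors through the cell. Of its 5 tested genes, 2 were called higher and 3 did not pass, where 3.36% of all tested genes were called higher. Sort1 (sortilin) differed by -0.051 ± 0.21 on the log2 scale, with an adjusted p of 0.938, Sorcs1 by 0.14 ± 0.57 with an adjusted p of 0.934 and Sorl1 by -0.32 ± 0.24 with an adjusted p of 0.519, all by edgeR. Sorcs1 and Sorl1 were named after their values were seen. Sorcs2, which binds the BDNF precursor together with p75, had 610, 470 and 562 counts in control and 3095, 2212 and 2185 in Ptch1-ablated libraries, a log2 fold change of 2.02 ± 0.21 with an adjusted p of 5.61e-05 by edgeR. Sorcs3 had 0 counts in each control library and 41, 57 and 46 counts in the Ptch1-ablated libraries, at least 14.1-fold higher when the control libraries are set at the floor of 3 counts each. Its adjusted p was 0.012 in the main edgeR fit and reached 0.0883 among the alternatives, where 5 of 14 gave a value over 0.05.

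The GDNF family ligands showed no difference that passed the test. Gdnf had 290, 160 and 308 counts in the control libraries and 357, 273 and 237 in the Ptch1-ablated libraries, which overlapped. Its log2 fold change was 0.046 ± 0.34, with an adjusted p of 0.969 by edgeR. Artn, the artemin gene, had 87, 80 and 105 counts in control and 51, 69 and 49 in Ptch1-ablated libraries. Each Ptch1-ablated library lay below each control library, yet the log2 fold change of -0.85 ± 0.63 had an adjusted p of 0.513. Nrtn, the neurturin gene, had at most 3 counts in any library. Pspn, the persephin gene, had 0, 2 and 11 counts in control and 25, 13 and 11 in Ptch1-ablated libraries, with an adjusted p of 0.558.

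Both co-receptors of the set were called, in opposite directions. Gfra1, the co-receptor for GDNF, had 5327, 5507 and 6048 counts in the control libraries and 1171, 1008 and 1373 in the Ptch1-ablated libraries. Every Ptch1-ablated library was far below every control library, and the level went from 122 ± 10.7 TPM to 26.0 ± 2.18 TPM. Gfra1 fell by 2.43 ± 0.16 on the log2 scale (5.40-fold lower), with an adjusted p of 2.08e-06 by edgeR. An antisense gene overlaps exons of Gfra1 in GENCODE, and reads of the pair cannot be told apart without strand.

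Gfra2, the co-receptor for neurturin, had 280, 148 and 101 counts in the control libraries and 1932, 1904 and 1694 in the Ptch1-ablated libraries. The control libraries varied by more than the Ptch1-ablated ones in proportion, with replicate 1 the highest. The level went from 5.14 ± 2.54 TPM to 56.2 ± 7.79 TPM. The log2 fold change was 3.21 ± 0.34 (9.24-fold), with an adjusted p of 7.60e-05 by edgeR. Without control replicate 1 it was 3.66, and without control replicate 1 and Ptch1-ablated replicate 2 together it was 3.63.

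**Figure D3:**
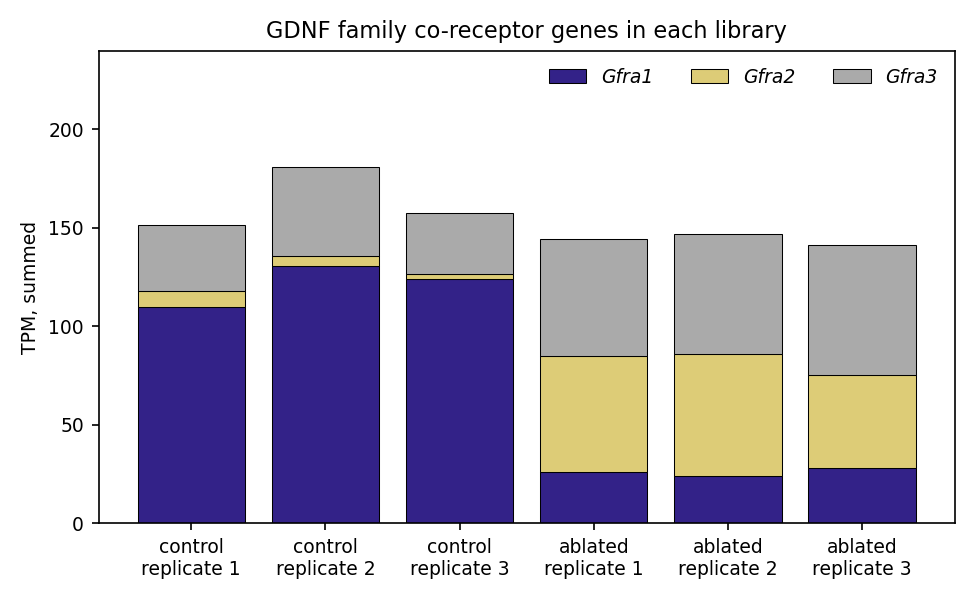
Stacked TPM of Gfra1, Gfra2 and Gfra3 (vertical axis, summed TPM from 0) in each of the 6 libraries. The sum is 152 to 181 TPM in the control and 141 to 147 TPM in the Ptch1-ablated libraries, while the share of Gfra1 goes from 72.4 to 78.7% down to 16.2 to 19.9%.

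Gfra3, the artemin co-receptor, is not in the set but was read with it. It had 662, 769 and 605 counts in control and 1079, 1036 and 1300 in Ptch1-ablated libraries, which did not overlap, with a log2 fold change of 0.55 ± 0.22 and an adjusted p of 0.176 by edgeR. With limma on log2(TPM + 1) the adjusted p was 0.0244, on the scale with a median shift of 0.19. Gfra4, the persephin co-receptor, had 23 counts in Ptch1-ablated replicate 1 and 0 in the other libraries, was not tested and is left out of the sums. Gfra1, Gfra2 and Gfra3 summed to 152, 181 and 157 TPM in control and 144, 147 and 141 TPM in Ptch1-ablated keratocytes. Gfra2 made up 1.81 to 5.19% of that sum in the control libraries and 33.6 to 42.3% in the Ptch1-ablated libraries. The TPM ratio of Gfra1 to Gfra2 was 14.0, 27.7 and 43.6 in the control libraries and 0.442, 0.382 and 0.593 in the Ptch1-ablated libraries, so the more abundant of the pair changed. Ret, the kinase that these co-receptors share, had 0, 27 and 10 counts in control and 16, 0 and 0 in Ptch1-ablated libraries, too few to test. Ncam1, the alternative partner, was at 152 to 164 TPM in control and 114 to 145 TPM in Ptch1-ablated keratocytes. Its log2 fold change of -0.52 ± 0.12 had an adjusted p of 0.0213, and 6 of its 15 alternatives gave a value over 0.05, up to 0.202. Sdc3, a syndecan that binds GDNF ligands, differed by -0.58 ± 0.19 with an adjusted p of 0.0857 by edgeR, and its groups did not overlap. It passed in 1 of its 15 alternatives, with an adjusted p of 0.0294 by DESeq2.

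**Figure D4:**
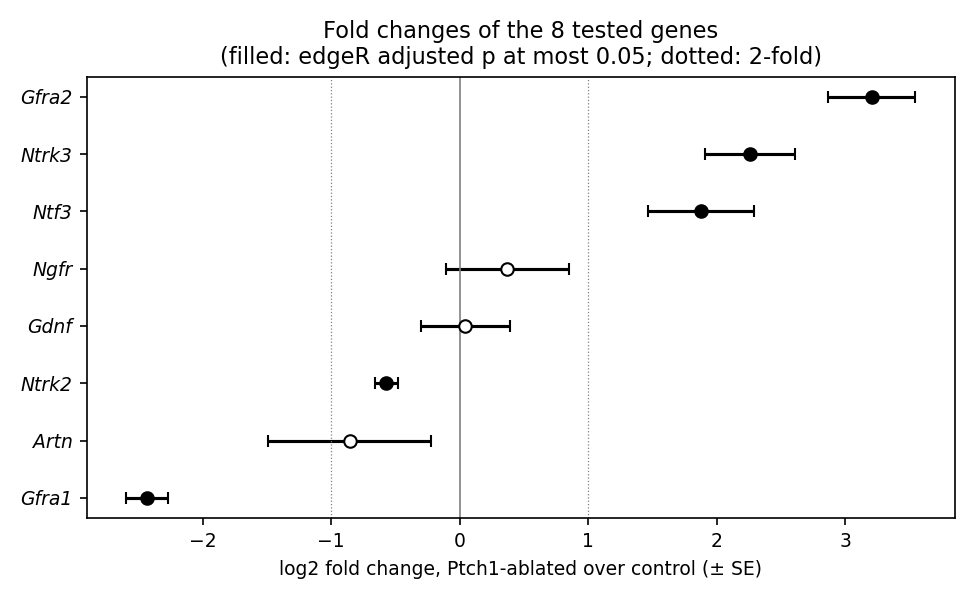
Log2 fold change of Ptch1-ablated over control keratocytes with its standard error for the 8 tested genes (horizontal axis), filled where the edgeR adjusted p was at most 0.05, with dotted lines at 2-fold. Gfra2 at 3.21, Ntrk3 at 2.26 and Ntf3 at 1.88 lie above the upper line, Gfra1 at -2.43 below the lower line, and Ntrk2 at -0.57 between them.

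The order of the levels in TPM differed between the groups. In control keratocytes Ntrk2 was followed by Gfra1, and the remaining genes lay in a low range in which neighbors overlapped, from Ntf3 (4.55 to 11.6), Gdnf (5.01 to 8.19) and Gfra2 (2.84 to 7.87) to Ngfr (2.25 to 5.13), Artn (2.90 to 4.05) and Ntrk3 (1.62 to 3.00), with Bdnf at 0. In Ptch1-ablated keratocytes Ntrk2 was followed by Gfra2 (47.4 to 62.2), Ntf3 (30.8 to 34.2) and Gfra1 (23.7 to 28.1), whose ranges did not overlap. Ntrk3 (9.88 to 15.5) came next and overlapped with Gdnf (6.35 to 10.2), which overlapped with Ngfr (3.20 to 8.10). Artn (2.06 to 2.48) lay below these and above Bdnf.

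Markers of other cells that a corneal sort can hold were summed beside these genes. Their counts of called genes stand beside 3.36% of all tested genes called higher and 2.13% called lower. The summed TPM of 16 Schwann cell markers, the glia of corneal nerves and a known site of Gfra3 and Ngfr, was 872 to 916 in the control and 1019 to 1113 in the Ptch1-ablated libraries. Of 15 tested, 2 were called higher, among them Erbb3 (log2 fold change 1.10), while Sox10 had an adjusted p of 0.435. The 10 mural cell markers summed to 488 to 556 TPM in control and 963 to 1016 TPM in Ptch1-ablated libraries, with 3 of 10 called higher (Kcnj8, Acta2 and Mcam). Acta2 is also among the fibroblast markers that the paper followed in these keratocytes. Pdgfrb, the largest part of the sum, averaged 265 TPM in control and 334 TPM in Ptch1-ablated libraries and was not called. The 12 vascular endothelial markers summed to 397 to 502 TPM in control and 690 to 706 TPM in Ptch1-ablated libraries, with 5 of 12 called higher (Cdh5, Tie1, Emcn, Vwf and Flt1). By sign, 9 were higher and 3 (Kdr, Erg and Lyve1) lower. Kdr, the largest part of the sum, averaged 195 TPM in control and 171 TPM in Ptch1-ablated libraries. Its log2 fold change was -0.40, with an adjusted p of 0.112 by edgeR. All 3 sums moved in the direction of Ntf3, Ntrk3 and Gfra2, and their part in those results was not tested. In bulk samples fewer cells of a type and less RNA per cell cannot be told apart.

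The neuronal markers in the table summed to 66.6 to 84.1 TPM in control and 22.7 to 44.8 TPM in Ptch1-ablated libraries. Among them Scn10a and Trpv1, which define sensory neurons, were at 0 in all control libraries and in 2 of 3 Ptch1-ablated libraries, and of 5 tested Tac1, a neuropeptide gene, was the 1 called, lower. Without Tac1 the sums were 14.9 to 32.6 TPM in control and 12.8 to 41.3 TPM in Ptch1-ablated libraries and overlapped, so the lower neuronal sum rested on that 1 gene. The corneal epithelial markers summed to 56.8 to 93.3 TPM in control and 5.35 to 11.98 TPM in Ptch1-ablated libraries, with 4 of 8 called lower (Krt5, Krt14, Krt15 and Pkp1) and 1, Krt12, higher. For these lists too, the shares over all tested genes were 2.13% called lower and 3.36% called higher. The 9 corneal endothelial markers, of which Aqp1 holds most of the counts, summed to 5848 to 6678 and 3963 to 4396 TPM, with 2 of 9 called higher (Col8a1 and Car3), while Aqp1 passed lower under 2-fold. The epithelial and endothelial sums moved in the direction of Gfra1 and Ntrk2, as did the keratocyte sum, and their part in those results was not tested. The leukocyte sums overlapped, at 1553 to 1762 and 1542 to 1976 TPM. The melanocyte sum, 8.69 to 14.3 and 18.0 to 21.2 TPM, was low in all libraries, 1 of 5 tested was called higher (Kit), and of its pigment genes Dct, Mlana and Slc45a2 were at 0 in at least 4 of the 6.

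Genes that act with these ligands and receptors were taken from 6 lists of 138 genes in all, of which 117 were tested. Of the 117, 7 (Sorcs2, Sorcs3, Gab1, Gab2, Nr4a1, Spry1 and Ptn) were called higher and 1 (Pcsk2) lower, beside 3.36% and 2.13% of all tested genes. With the adjusted p alone 14 passed higher and 5 lower, beside 4.68% and 3.80% of all tested genes. The median log2 fold change was 0.074 over the 117 genes.

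**Figure D5:**
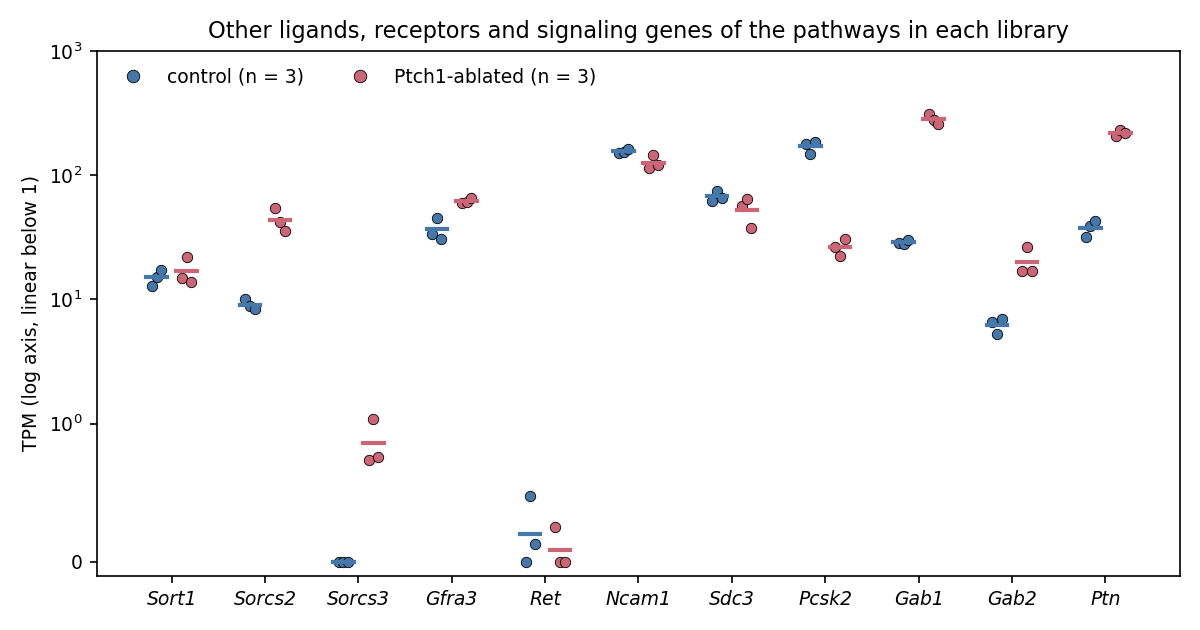
TPM (vertical axis logarithmic above 1 and linear below) of 11 genes that act with the neurotrophin and GDNF families, in the 3 control and 3 Ptch1-ablated libraries, with points for libraries and bars for group means. Sorcs2, Gab1, Gab2 and Ptn lie higher and Pcsk2 lower in all 3 Ptch1-ablated libraries, while Ret stays under 1 TPM in each library.

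Among the enzymes that cut neurotrophin precursors, 11 genes were tested and Pcsk2 was the 1 called, beside 5.49% of all tested genes. Pcsk2, a prohormone convertase of the regulated secretory pathway, had 8973, 6466 and 9327 counts in control and 1218, 974 and 1563 in Ptch1-ablated libraries. It fell by 2.89 ± 0.18 on the log2 scale (7.42-fold lower), with an adjusted p of 1.37e-06 by edgeR. Furin, the convertase of the constitutive pathway, differed by 0.24 ± 0.24 with an adjusted p of 0.642. Furin was named after its value was seen. GENCODE holds 2 antisense genes over exons of Pcsk2.

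Of the 39 tested adaptors and kinases downstream of Trk and Ret, 2 were called, beside 5.49% of all tested genes. Both encode docking proteins. Gab1 had 1764, 1355 and 1551 counts in control and 14376, 12122 and 13134 in Ptch1-ablated libraries, with a log2 fold change of 2.91 ± 0.14 (7.53-fold) and an adjusted p of 2.39e-07 by edgeR. Gab2 had 419, 295 and 446 counts in control and 996, 1483 and 1104 in Ptch1-ablated libraries, with a log2 fold change of 1.47 ± 0.24. The other 37 were not called, and the median of the list was 0.13. An antisense gene overlaps exons of Gab1 and another those of Spry1. Of 23 tested effectors of p75, 1 passed higher (Adam17, a sheddase, log2 fold change 0.73) and 1 lower (Ndn, necdin, -0.63) with the adjusted p alone, both under 2-fold and both named after the values were seen. By that rule, 8.48% of all tested genes passed in either direction.

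Of 18 tested genes of the ERK response and its feedback, which many receptors besides Trk and Ret can move, 2 were called higher, beside 3.36% of all tested genes, and 7 passed higher with the adjusted p alone, beside 4.68%. The list median was 0.48, beside 0.0046 over all tested genes. Nr4a1, an immediate early nuclear receptor, had 7565, 5789 and 9397 counts in control and 17085, 19182 and 20388 in Ptch1-ablated libraries, with a log2 fold change of 1.15 ± 0.14. Spry1, a feedback inhibitor of receptor kinase signaling, had 249, 217 and 301 counts in control and 657, 665 and 792 in Ptch1-ablated libraries, with a log2 fold change of 1.29 ± 0.25. Fos, Egr1, Egr2, Dusp1 and Dusp6 were the others that passed, with log2 fold changes from 0.47 to 0.86, and were named after the values were seen.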

How the data were processed

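RNA of sorted mouse corneal keratocytes was measured in 3 control and 3 Ptch1-ablated libraries, grouped by their titles. Per the labels, reads were processed with Bowtie2 (2.2.5) and RSEM (1.2.12), and the build named in the submitters' processing notes is mm9; the annotation and strandedness are not given in the sources used here. The labels name a TruSeq kit, while the study's methods name ribosomal RNA depletion and DNA nanoballs sequenced on a BGISEQ platform. The authors deposited RSEM expected counts per gene, not normalized (18.6% not whole), TPM values scaled by the authors to effective length and a common sum, and FPKM values scaled by the authors to length and library size. The total per library, 20258439 to 24788063, sets the precision of low genes.

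Expected counts were rounded, filtered with filterByExpr, scaled by TMM and tested with edgeR (4.0.16), with p-values adjusted by Benjamini-Hochberg across the tested genes. Calls needed a change of 2-fold or more with an adjusted p no higher than 0.05. For a single gene, the smallest exact permutation p with 3 libraries per group is 0.10. Each edgeR p-value weighs the difference between the groups against the spread between these libraries, moderated across genes. Whether that spread is between single animals is not known. DESeq2 (1.42.0), limma (3.58.1) on log2(TPM + 1) and log2(TPM + 0.1), 2 other scalings, 2 other filters, the replicate block and leaving out libraries were alternatives, and scripts were tested on simulated data. Effective length was the count divided by FPKM and scaled by the library total.

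The 9 genes and the lists were chosen with earlier results of these data known. The genes named are all 9, every called gene of the pathway lists, the partners Ntf5, Sort1, Nrtn, Pspn, Ret, Gfra3, Ncam1 and Sdc3, markers whose summed level moved with them, and for each called gene the 3 genes with the most similar centred log2 CPM profile (prior count 2). Transcripts came from GENCODE M21 and promoters from RefSeq. Some partner and marker genes are not reported here.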

Additional observations from a re-analysis of the deposited data

How the results depend on the processing

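Over 22 single genes and 328 alternative values, 302 kept direction and side of the threshold, 15 lost and 3 gained the adjusted p of 0.05, and 8 changed sign. The 8 were genes that had not passed: Gdnf (-0.0025 with upper quartile scaling, -0.144 without control replicate 2, -0.151 without Ptch1-ablated replicate 1, within a leave-one-out range of -0.151 to 0.188) and Sort1 (0.144 and 0.152 with limma on log2(TPM + 1) and log2(TPM + 0.1), 0.0388 without control replicate 3, 0.0196 and 0.0425 without Ptch1-ablated replicates 1 and 3, within a leave-one-out range of -0.231 to 0.0425); the cause was not tested. The calls of Ntrk3, Gfra1 and Gfra2 held in all 15 alternatives, with log2 fold changes from 1.94 to 2.40, from -2.53 to -2.18 and from 2.90 to 3.66. Members called higher numbered 2 to 3 and called lower 1 in each leave-one-out fit. Without a fold minimum, 1178 genes passed, 2 of the 9 genes lower, and 14 pathway genes higher and 5 lower. Pathway genes called lower were 2 with upper quartile scaling (Manf beside Pcsk2) and 1 to 3 when 1 library was left out, with Manf, Serpini1 or Psen2 added. An alternative chosen after seeing the data, without control replicate 1 and Ptch1-ablated replicate 2, called 744 genes and gave 2 (Mmp9 beside Pcsk2).

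The labels number replicates 1 to 3 in both groups. Deviations of same-numbered libraries correlated at -0.0461, -0.0489 and 0.0388, so the numbers are not taken to pair libraries. With the replicate block 663 genes were called in place of 763, with 3 of the set higher and 1 lower, and 6 pathway genes higher and 1 lower, where Sorcs3 had an adjusted p of 0.0704 by edgeR. Depth limits Bdnf, Ret, Nrtn and Ntf5, which had too few counts for a test.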

Other observations

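Of 13 tested genes of a list of other neurotrophic factors, 1 was called, higher, beside 5.49% of all tested genes called in either direction, and the list median log2 fold change was 0.079. Ptn, which encodes the heparin-binding growth factor pleiotrophin, had 469, 506 and 638 counts in the control libraries and 2851, 2964 and 3287 in the Ptch1-ablated libraries, with no overlap, a log2 fold change of 2.32 ± 0.18 (4.99-fold) and an adjusted p of 6.43e-06 by edgeR. Its relative Mdk (midkine) had 1277, 995 and 1035 counts against 599, 874 and 1090, and did not pass (adjusted p = 0.201). Il6st, the gp130 subunit through which CNTF and LIF signal, rose by 0.88 ± 0.12 on the log2 scale, with an adjusted p of 0.000652, under the 2-fold line. Manf, an endoplasmic reticulum protein with neurotrophic activity, fell by 0.97 ± 0.17 on the log2 scale, with an adjusted p of 0.00401, and its relative Cdnf had 123, 106 and 123 counts in control and 45, 54 and 31 in Ptch1-ablated libraries with an adjusted p of 0.156. Mdk, Il6st, Manf and Cdnf were chosen after their values were seen.

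The genes whose profile over the 6 libraries was most similar to that of each called gene were found by the root mean square difference of centred log2 CPM. For Ntf3 they were Lrg1 (0.243), Vstm4 (0.247) and Lrrc8d (0.257). For Ntrk3 they were Aoc3 (0.165), Glipr2 (0.207) and Jag1 (0.212). For Gfra2 they were Runx1 (0.154), Penk (0.273) and Ccne2 (0.280), and for Gfra1 they were Gpnmb (0.128), Ctsl (0.133) and Pgm5 (0.152). Ccne2 averaged 0.027 CPM in control, under the floor of 3 counts, and 1.13 CPM in Ptch1-ablated libraries. Its profile therefore rests in part on the prior count. The difference between the groups dominates all of these profiles, which rest on 6 libraries.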
